A study of Rattus norvegicus with 6 samples.

Results

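The genes described here are 6 classical genes of the neuronal cytoskeleton and the synapse, followed in cultured ependymal stem cells of the rat spinal cord. They are Map2 (ENSRNOG00000011841), Snap25 (ENSRNOG00000006037), Gap43 (ENSRNOG00000001528), Syn1 (ENSRNOG00000010365), Nefl (ENSRNOG00000013658) and Nefm (ENSRNOG00000013916). They were picked by gene ID from the 32883 genes of the count tables, whose rows carry IDs and no names, so the 6 symbols are those supplied with the set. All 6 were counted in every library and all 6 passed the filter on low counts, among 15919 genes tested. The study exposed rat epNSPCs, the labels' name for these cells, to a glutamate level that is toxic to neurons. Control cultures (3 libraries) were kept in neurobasal media, and glutamate cultures (3 libraries) in the same medium with 500 uM glutamate, all at day 2. The labels give no strain, sex or age of animal and do not say whether libraries came from separate animals or cultures. P-values therefore measure the spread between these libraries, which may be technical.

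Neurons build long processes on microtubules and neurofilaments. Map2 binds and stabilises microtubules, mainly in dendrites, and its shorter forms are also made by immature glia. Gap43 lies under the membrane of the growth cone, and glial precursors can make it as well. Nefl and Nefm are the light and medium subunits that assemble together into neurofilaments of the axon. Snap25 is a SNARE protein that drives fusion of synaptic vesicles with the presynaptic membrane, and Syn1 is a phosphoprotein that tethers those vesicles to the cytoskeleton. Ependymal cells line the central canal and are known as a source of stem cells that form mostly glia after spinal cord injury.

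Promoter sequence was at hand for 2 of the 6 genes, Map2 and Syn1, in RefSeq's GRCr8 assembly. The windows are shown because glutamate signalling is known to act through CREB, a factor that binds the cAMP response element. Each holds the 250 bases before the gene's start, 5′ to 3′ on the + strand, at chr9:75346440-75346689 for Map2 and chrX:3725495-3725744 for Syn1, and capitals mark TGACGTCA, the full cAMP response element.
Map2: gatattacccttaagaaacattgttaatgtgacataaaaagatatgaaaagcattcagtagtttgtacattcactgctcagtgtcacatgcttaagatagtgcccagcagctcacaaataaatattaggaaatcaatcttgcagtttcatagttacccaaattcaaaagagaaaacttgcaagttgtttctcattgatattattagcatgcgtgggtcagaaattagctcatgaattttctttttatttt
Syn1: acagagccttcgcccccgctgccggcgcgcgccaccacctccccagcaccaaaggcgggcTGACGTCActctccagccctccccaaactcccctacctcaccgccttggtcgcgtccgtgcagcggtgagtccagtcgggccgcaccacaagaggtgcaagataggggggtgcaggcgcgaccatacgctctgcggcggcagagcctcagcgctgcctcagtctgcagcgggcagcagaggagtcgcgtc

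The Syn1 window was rich in G and C (69.6%, with 24 CG dinucleotides) and the Map2 window poor (32%, with 1), against a median of 51.2% and 5 over 33469 windows of the same length. The cAMP response element is palindromic. It was found once in the Syn1 window, 190 to 183 bases before the start, and in no place in the Map2 window. It occurred in 1.59% of all windows. Neither window held TGACTCA, the AP-1 site (4.05% of windows), or TTCAGCACC, the left part of the RE1 site of the neuronal repressor REST (0.305% of windows), with both strands searched. A match describes the letters of the window and says nothing of binding. The rest of the RE1 site, bases outside the windows and other starts of the genes, if any, were not searched. A lack of matches therefore does not show that a gene lacks the site.

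Libraries held 166567977 to 181352365 counts, so even the least abundant of the 6 genes rested on at least 552 reads in each library. Control replicate 1 stood apart from the other control libraries, with a chi-square per gene of 88.3 and 160.3 against them, where control replicates 2 and 3 gave 32.0. Levels below are CPM (counts scaled to the size of the library), scaled between libraries by TMM. The files give no gene lengths, so levels are compared between groups and not between genes. The IDs of cell type markers could not be matched to names, so the ependymal label, and any share of other cells in the cultures, was not tested. In bulk RNA, fewer cells of a type and less RNA per cell cannot be told apart.

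Snap25 was lower with glutamate, and the other 5 genes did not pass the test. Thus 1 of 6 was called (edgeR quasi-likelihood test, adjusted p below 0.05), where 27.7% of all genes tested were called and 13.7% were called as falls. A count of 1 in 6 is near that background. The fitted change was positive in 3 genes (Map2, Nefl and Nefm) and negative in 3 (Snap25, Gap43 and Syn1), with a median log2 fold change of -0.03 against -0.01 over all genes tested. The median size of the change was 0.22 on the log2 scale for the 6 genes and 0.21 over all genes. Control and glutamate values did not overlap in 3 of the 6 genes (Map2, Snap25 and Nefl), against 46.8% of all genes tested.

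**Figure D1:**
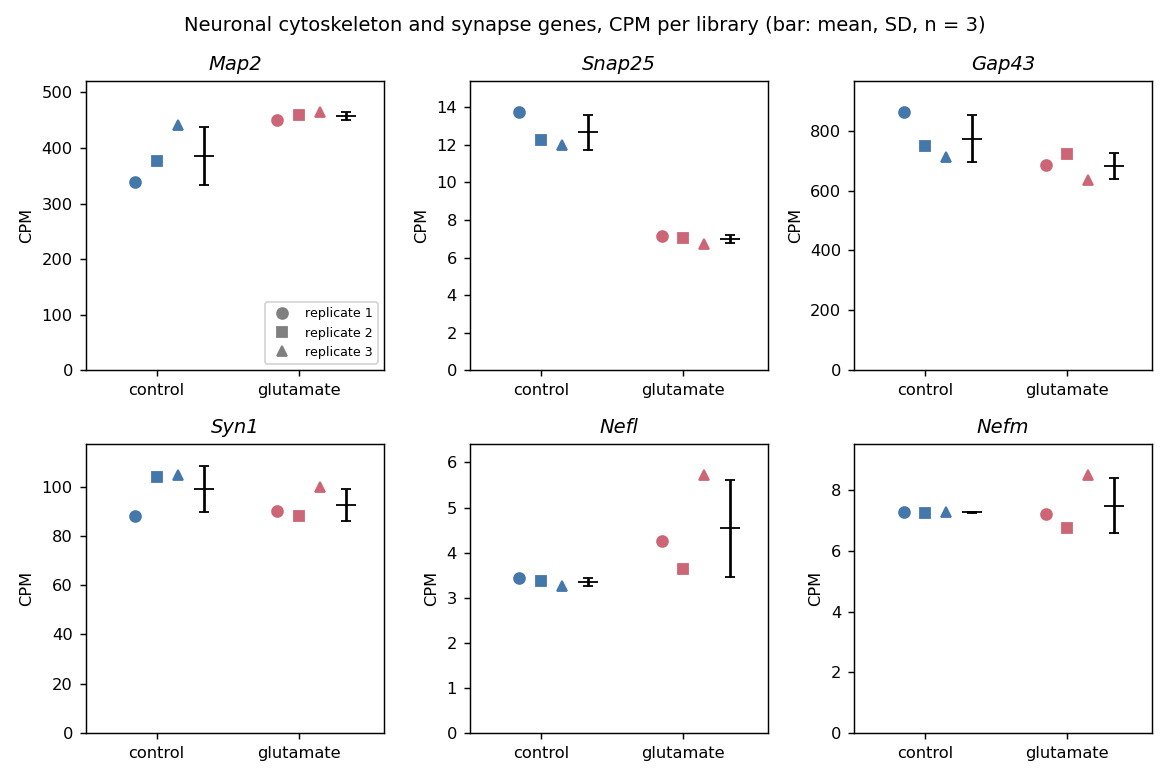
CPM of each gene (y axis, from 0) in the 3 control (blue) and 3 glutamate (red) libraries, with marker shape giving the replicate number and the black bar the mean and SD. Snap25 falls from 11.99 to 13.7 CPM in control to 6.72 to 7.15 CPM with glutamate, and the other 5 genes move by less than this relative to their level.

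Snap25, the SNARE protein of the presynaptic membrane, stood at 13.7, 12.3 and 11.99 CPM in control replicates 1 to 3 and at 7.15, 7.05 and 6.72 CPM in glutamate replicates 1 to 3. Each glutamate library lay well below the lowest control library. The mean went from 12.7 ± 0.9 CPM to 6.98 ± 0.23 CPM (SD, n = 3 each), which is 0.55 of the control level, with a 95% interval from 0.48 to 0.63. The log2 fold change was -0.86 (standard error 0.09, adjusted p = 0.000128 in edgeR), larger in size than in 92.2% of genes tested. Snap25 also passed a test against a change of 1.5-fold (edgeR glmTreat, adjusted p = 0.0361), as did 3.35% of all genes, and 0.653% as falls. The value rested on 1119 to 2474 reads per library. In the RefSeq annotation of GRCr8, 2 long non-coding RNA genes overlap Snap25, and how shared reads were counted is not given in the sources used here.

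Syn1, which holds synaptic vesicles in reserve, was at 88.1, 103.9 and 104.8 CPM in the control libraries and at 90.1, 87.9 and 99.8 CPM in the glutamate libraries. The groups overlapped, with control replicate 1 at the level of the lower glutamate libraries. Its log2 fold change was -0.10 (standard error 0.08, adjusted p = 0.403 in edgeR), and the 95% interval ran from 0.83 to 1.06 of the control level. Without control replicate 1, the library that stood apart, the log2 fold change was -0.17 and passed the test (edgeR adjusted p = 0.0324), in a fit that called 32.8% of all genes. Syn1 passed in only this 1 of the 6 fits with a library left out. Without control replicate 3 its log2 fold change was -0.06 (edgeR adjusted p = 0.631). Syn1 shares its stretch of the GRCr8 annotation with 3 other protein-coding genes, among them Timp1, a protease inhibitor, and Araf, a kinase. The strand setting and the exons shared with these genes are not known here, so part of the Syn1 count could come from them, which was not tested.

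The 2 presynaptic genes were set against each other within each library, a ratio that scaling does not touch. Snap25 counts were 0.156, 0.118 and 0.114 of Syn1 counts in control replicates 1 to 3, and 0.0794, 0.0803 and 0.0673 in glutamate replicates 1 to 3. All glutamate ratios lay below all control ratios, and the mean ratio went from 0.130 ± 0.023 to 0.0757 ± 0.0073 (SD, n = 3 each). The mean log2 ratio was 0.77 lower, with a two-sided exact permutation p of 0.1 (also 0.1 adjusted by Benjamini-Hochberg over 2 ratios), and no smaller p can be had from 3 libraries a group. The reads of overlapping genes in the Syn1 count, if any, enter this ratio too. Being built from the same counts as the tests of Snap25 and Syn1, the ratio is not separate evidence on them.

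**Figure D2:**
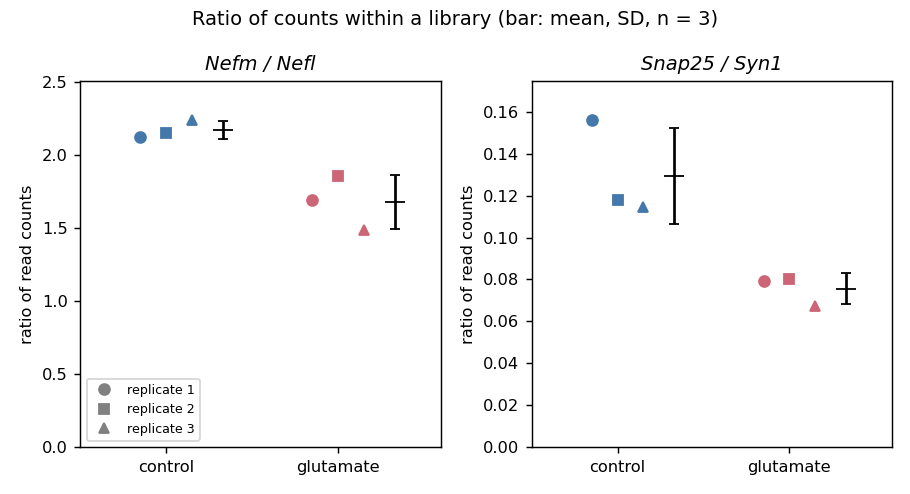
Ratio of read counts within a library (y axis, from 0) for Nefm over Nefl and for Snap25 over Syn1, in control (blue) and glutamate (red) libraries, with the mean and SD as a black bar. In both panels the 3 glutamate libraries lie below the 3 control libraries.

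Nefl, the light neurofilament subunit, was at 3.43, 3.36 and 3.25 CPM in the control libraries and at 4.27, 3.63 and 5.73 CPM in glutamate replicates 1 to 3. The groups did not overlap, but glutamate replicate 3 was far above the other libraries. The means were 3.35 ± 0.09 and 4.54 ± 1.08 CPM (SD, n = 3 each), so the glutamate libraries varied by 23.7% (coefficient of variation) and the control libraries by 2.71%. The latter is smaller than the 4.26% that counting alone would give at 552 reads. The log2 fold change was 0.44 (standard error 0.16), or 1.36 of the control level with an unadjusted 95% interval from 1.06 to 1.74, and it did not pass the test (edgeR adjusted p = 0.0666). It passed in DESeq2 (adjusted p = 0.0293, with 28.8% of all genes called) and, in edgeR, without glutamate replicate 2 (log2 fold change 0.59, adjusted p = 0.0326, with 15% called). Without glutamate replicate 3 it was 0.24 (edgeR adjusted p = 0.229).

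Nefm, the medium subunit, was at 7.28, 7.23 and 7.28 CPM in the control libraries and at 7.23, 6.74 and 8.51 CPM in glutamate replicates 1 to 3. The control values lay inside the range of the glutamate values, and glutamate replicate 3 was again the highest. The log2 fold change was 0.04 (standard error 0.10, adjusted p = 0.774 in edgeR), with a 95% interval from 0.88 to 1.21 of the control level, and -0.06 without glutamate replicate 3. Another protein-coding gene, LOC134482139, overlaps Nefm in GRCr8.

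The neurofilament subunits are neighbours on chromosome 15, with 0 protein-coding genes and 1 pseudogene between them in GRCr8. Nefm had 2.12, 2.15 and 2.24 reads per Nefl read in the control libraries and 1.69, 1.86 and 1.49 in glutamate replicates 1 to 3. The ratio was lower in every glutamate library than in any control library. Its mean went from 2.17 ± 0.06 to 1.68 ± 0.19 (SD, n = 3 each), a mean log2 difference of -0.38 (exact two-sided permutation p = 0.1, adjusted 0.1 over the 2 ratios). This ratio, too, is built from the counts of the single-gene tests and is not separate evidence.

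Map2, the dendritic microtubule protein, was at 339, 376 and 442 CPM in control replicates 1 to 3 and at 450, 460 and 465 CPM in glutamate replicates 1 to 3. The glutamate libraries were close together and all above the control libraries, the highest of which fell just short of them. The means were 386 ± 52 and 458 ± 7 CPM (SD, n = 3 each). The log2 fold change was 0.25 (standard error 0.09), or 1.19 of the control level with an unadjusted 95% interval from 1.04 to 1.36, and it did not pass the test (edgeR adjusted p = 0.0623). Without control replicate 3 the log2 fold change was 0.35 (edgeR adjusted p = 0.00316, with 34.4% of all genes called), and without control replicate 1 it was 0.16 (adjusted p = 0.0586).

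Gap43, the growth cone protein, was at 862, 748 and 711 CPM in control replicates 1 to 3 and at 686, 723 and 637 CPM in glutamate replicates 1 to 3. The groups overlapped, since glutamate replicate 2 exceeded control replicate 3. The means were 774 ± 79 and 682 ± 43 CPM (SD, n = 3 each). The log2 fold change was -0.18 (standard error 0.08), or 0.88 of the control level with an unadjusted 95% interval from 0.776 to 0.9999. It did not pass the test over all 6 libraries (edgeR adjusted p = 0.124). It passed the test without control replicate 3 (-0.24, edgeR adjusted p = 0.0402) and was -0.10 without control replicate 1 (adjusted p = 0.185).

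Control replicate 1 held the lowest control value of Map2 and Syn1 and the highest control value of Snap25, Gap43, Nefl and Nefm. For Nefl and Nefm the control libraries differed by less than counting error. Control replicate 3 was the control library nearest to the glutamate values in Map2, Snap25 and Gap43. The fall of Snap25 was called without either, at a log2 fold change of -0.80 without control replicate 1 and -0.90 without control replicate 3 (edgeR adjusted p = 1.36e-05 and 0.000206). Among the glutamate libraries, replicate 3 was the highest in Map2, Syn1, Nefl and Nefm and the lowest in Snap25 and Gap43.

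**Figure D3:**
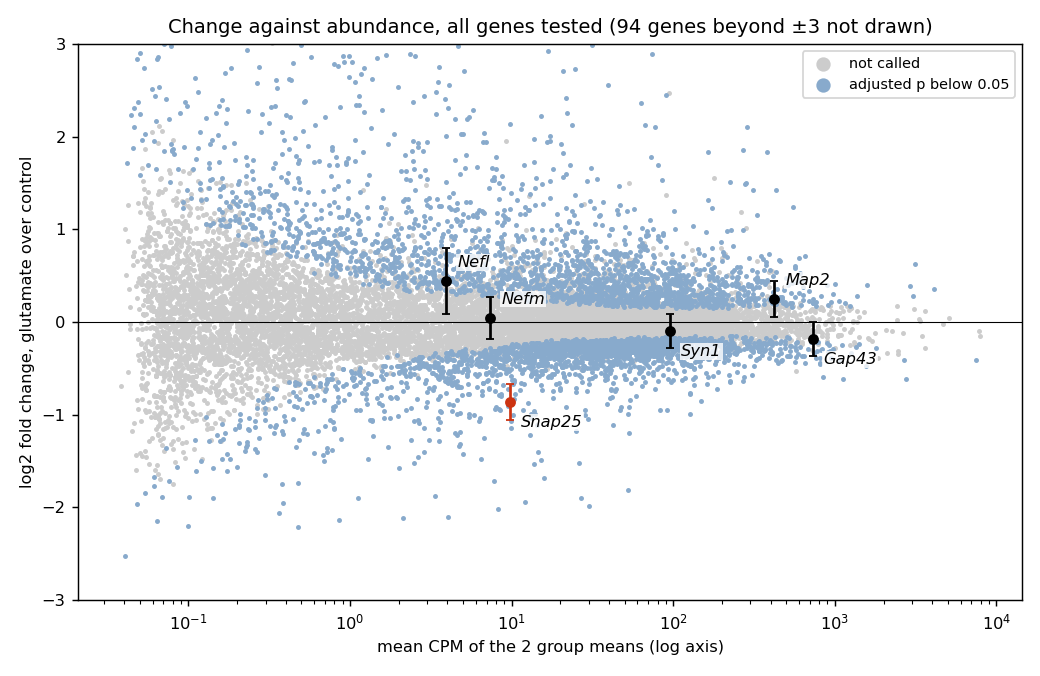
Log2 fold change of glutamate over control (y axis) against mean CPM (x axis, log scale) for the genes tested, grey where not called and blue where the adjusted p was below 0.05, with the 6 genes drawn with their 95% intervals (red where called, black where not). Snap25 lies at -0.86, and the other 5 genes lie between -0.18 and 0.44.

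The spread between replicates that the model estimated for each gene (biological coefficient of variation) was 7.99% for Gap43, 8.07% for Syn1, 8.52% for Map2, 9.63% for Snap25, 10.7% for Nefm and 14.7% for Nefl, against a median of 9.79% over genes tested. Counting error at the lowest count was at most 0.811% for Map2, Gap43 and Syn1 and 2.93% to 4.26% for the other 3. For the 3 abundant genes the number of reads was thus not what limited the test. For each of the 5 genes without a call, the unadjusted 95% interval leaves out a change as large as Snap25's fitted 0.55. The interval of Nefl reached a log2 fold change of 0.80 and that of Snap25 ended at -0.66, so these overlap in size.

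The genes whose values followed these most closely over the 6 libraries were found by Pearson correlation of log2 CPM, among 12065 other genes that averaged 1 CPM or more. These correlations share the libraries and the treatment difference and describe likeness only. The closest to Snap25 was ENSRNOG00000005083 (r = 0.999), at 97.4 ± 2.4 CPM in control and 80.8 ± 0.7 CPM with glutamate (SD, n = 3 each). It was called, with a log2 fold change of -0.27 (standard error 0.05, adjusted p = 0.00436 in edgeR), a smaller change than that of Snap25. The closest to Map2 was ENSRNOG00000022781 (r = 0.9997), with a log2 fold change of 0.42 (standard error 0.15, adjusted p = 0.0800 in edgeR). Gap43 had ENSRNOG00000009057 (r = 0.998) and Nefl had ENSRNOG00000019996 (r = 0.977), neither of them called. Of the 12065 genes, 887 correlated above 0.95 with Snap25, 708 with Map2, 338 with Gap43, 22 with Syn1, 10 with Nefl and 2 with Nefm.

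**Figure D4:**
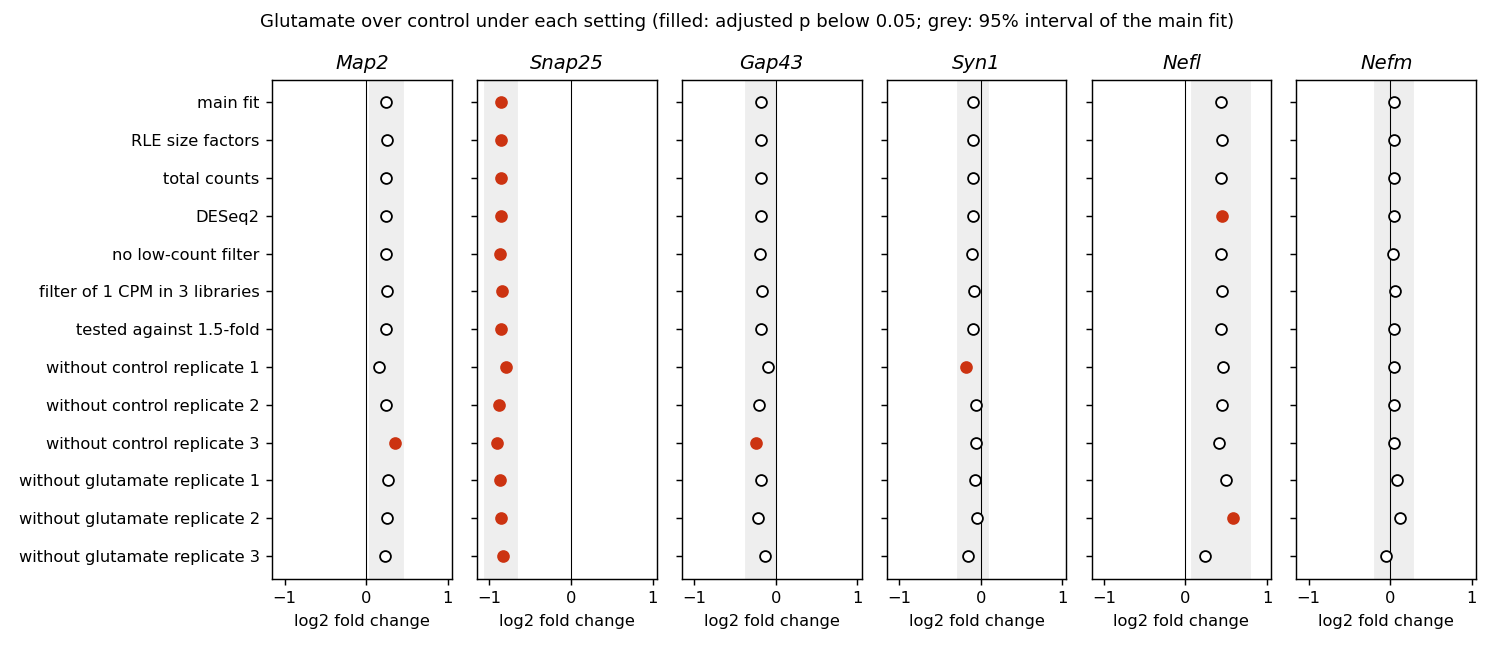
Log2 fold change of glutamate over control (x axis) for each gene under the main fit and each alternative fit except the replicate block (rows). Points are filled where the adjusted p was below 0.05, and the 95% interval of the main fit is in grey. Snap25 is filled in every row, Nefm in none, and Map2, Gap43, Syn1 and Nefl only in some.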

How the data were processed

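Per the file headers, the authors deposited raw read counts per Ensembl gene ID, 1 table per library. The submitters' processing notes name genome build rn6, featureCounts 2.0.1, SAMtools, STAR 2.7.8a and Trim Galore 0.6.5, and the labels a directional kit. Annotation release, strand setting and handling of shared reads were not given in the sources used here. The 6 genes and all lists were chosen with earlier results of these data known. Genes named are the 6, plus for each the non-member of highest correlation, printed for at most 2 per direction. The planned lists (neuronal cytoskeleton, presynaptic, postsynaptic, neuronal identity, cell type markers) were not evaluated, because 0 rows of the RefSeq table carry an Ensembl ID.

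Counts were tested with edgeR 4.0.16 (R 4.3.3): filterByExpr (minimum count 10, total 15), TMM, robust quasi-likelihood fit over all 6 libraries without covariates, Benjamini-Hochberg adjustment over all genes tested. The SE is the log2 fold change divided by the root of F. The 95% intervals are for single genes. Ratios were tested by exact permutation. No pair of libraries differed by as little as sampling noise (lowest chi-square per gene 19.0). On simulated data (15756 genes) the fit recovered 36%, 68%, 96% and 94% of genes changed 1.3, 1.5, 2 and 4-fold. Changed genes were drawn at random from those tested, with spread taken from the trend over abundance and no library standing apart. The recovery is thus not that of these 6 genes. Alternatives were RLE or total-count scaling, DESeq2 1.42.0, other filters, a replicate block, a 1.5-fold test, a pseudocount of 1 in the ratios, and leaving out each library.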

Additional observations from a re-analysis of the deposited data

How the results depend on the processing

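Snap25 kept its direction and its call in all 13 alternative fits. Of the 6 genes, 1 was called in the main fit (27.7% of all genes tested), 2 in DESeq2 (28.8%; with Nefl, 0.44), 2 with the replicate block (28.6%; with Map2, 0.26, adjusted p = 0.0307), and 1 to 3 when a library was left out (15% to 34.4%). The cause was not tested. With 1 library left out, the fits gave log2 fold changes of 0.16 to 0.35 for Map2, -0.90 to -0.80 for Snap25, -0.24 to -0.10 for Gap43, -0.17 to -0.051 for Syn1, 0.24 to 0.59 for Nefl and -0.058 to 0.12 for Nefm. Only the sign of Nefm turned (-0.058 without glutamate replicate 3). The log2 ratio difference ran from -0.45 to -0.29 for Nefm to Nefl and from -0.85 to -0.62 for Snap25 to Syn1. Over all genes tested, 4413 were called, 534 in the test against 1.5-fold (which asks for a larger change) and 2420 to 5584 with a library left out (2603 without control replicate 2, and 2442, 2420 and 2436 without glutamate replicates 1, 2 and 3). The labels do not say that replicate numbers pair the libraries, and same-numbered deviations correlated at 0.10, -0.02 and 0.14, so the replicate block is no main result; it called 4553 genes and changed no other call among the 6. Depth is not what limits Map2, Gap43 and Syn1, and a gene without a call is not shown to be unchanged.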
